A study of Homo sapiens with 8 samples.

Results

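Long non-coding RNAs (lncRNAs) are transcripts that do not code for protein, and a small number of them are so abundant that they take up a visible share of a total RNA library. The 8 described here, MALAT1, NEAT1, MEG3, KCNQ1OT1, MIAT, TUG1, OIP5-AS1 and NORAD, were listed by name as abundant nuclear and cytoplasmic lncRNAs, and each was found in the count matrix by its Ensembl identifier, 8 of 60676 rows. All 8 passed the filter on low counts, which left 16680 genes, 1772 of them annotated as lncRNA. Because abundance entered the choice, their levels are given as a description. The cells were IGR-N91, an established human neuroblastoma (NB) line, grown as aggregates in hanging drops. All 8 libraries came from this line, 2 for each of 4 groups. One group was kept in control medium, and the others received medium conditioned by sympathetic ganglia of E8 chick embryos (E8-cSGcm), by dorsal root ganglia of E8 chick embryos (E8-cDRGcm) or by sympathetic ganglia of E15.5 mouse embryos (E15.5-mSGcm). The labels of the libraries state 20 h of exposure and the description of the series 24 h. The labels call the 2 libraries of a group duplicates without saying whether they came from separate cultures, so p-values measure only the spread between these libraries.

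The 8 lncRNAs work in different places and by different means. MALAT1 is retained in the nucleus at speckles, which are stores of splicing factors, and NEAT1, transcribed from the neighbouring locus, is the scaffold of paraspeckles, nuclear bodies built from its long isoform and RNA-binding proteins. MEG3 is expressed from the maternal copy of the imprinted DLK1-DIO3 domain, and KCNQ1OT1 from the paternal copy of the KCNQ1 domain, where it runs antisense inside KCNQ1 and silences genes in cis. MIAT is a nuclear RNA of neural cells, TUG1 is found in the nucleus and the cytoplasm and was first described in retinal development, OIP5-AS1 (Cyrano in the mouse) binds microRNA and RNA-binding proteins, and NORAD is a cytoplasmic RNA that sequesters the Pumilio proteins.

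Several of these functions can be read in the sequences themselves. MALAT1 and the long isoform of NEAT1 lack a normal poly(A) tail, and their 3' ends are closed instead by a triple helix of U-rich stretches and an A-rich stretch. The stretches shown run, on GRCh37, from the motif TTTGCTTT to its reverse complement AAAGCAAA, both in capitals and on the plus strand. They were cut at these motifs and need not hold every U-rich stretch of the triple helix. That of MALAT1 is at chr11:65273543-65273586, bases 8433 to 8476 of its 10434-base annotated transcript, of which 1958 bases follow the stretch. That of NEAT1 is at chr11:65212962-65213010, which ends 1 base before the end of its 22743-base transcript.
MALAT1: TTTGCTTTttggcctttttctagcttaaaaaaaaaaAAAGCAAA
NEAT1: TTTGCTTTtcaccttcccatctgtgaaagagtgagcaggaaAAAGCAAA
Among 18702 lncRNA genes with a transcript, 1430 held the first motif and 1632 the second on the transcribed strand, and 28 (0.150%) held both in this order within 200 bases. MALAT1 and NEAT1 were among these 28, which is no test, since the motifs searched are those of the stretches shown for them. TALAM1, the antisense transcript of MALAT1, was also among the 28, since the pair is its own reverse complement. None of the other 6 lncRNAs described here held the pair.

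NORAD carries repeats of the Pumilio recognition motif TGTANATA. Its 5401-base transcript held 15 of them, 2.78 per kb, and the other 7 lncRNAs held between 0 and 0.268 per kb. Of 483 lncRNA genes with a transcript of at least 5000 bases, 49.7% held at least 1 and 5, NORAD among them, held at least as many as NORAD. The first 4 sites along NORAD (chromosome 20, minus strand, GRCh37) are shown with their flanks. Capitals mark the motif by which the sites were found.
NORAD chr20:34638107-34638130: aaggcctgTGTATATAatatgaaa
NORAD chr20:34637728-34637751: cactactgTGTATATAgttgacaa
NORAD chr20:34637627-34637650: tcacatttTGTAAATAcctttttg
NORAD chr20:34637426-34637449: cttatctgTGTATATAgtgtacat

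The promoters differ as well. The RefSeq table (GRCh38.p14) gave a window of 250 bases before to 50 bases after the start for 6 of the 8, and NEAT1 and KCNQ1OT1 were not matched. Windows are shown for MALAT1 and MEG3, which moved in opposite directions in the chick media. Those of TUG1 and NORAD, which moved alike, are also shown. Capitals mark the matches, on either strand, to 6 motifs, none of which contains another: the GC box (GGGCGG), the E-box (CACGTG), the CCAAT box (searched by the letters of its name), the motif of the TATA box (TATAAA), the CRE (TGACGTCA) and AP-1 (TGANTCA).
MALAT1 chr11:65497488-65497787, plus strand: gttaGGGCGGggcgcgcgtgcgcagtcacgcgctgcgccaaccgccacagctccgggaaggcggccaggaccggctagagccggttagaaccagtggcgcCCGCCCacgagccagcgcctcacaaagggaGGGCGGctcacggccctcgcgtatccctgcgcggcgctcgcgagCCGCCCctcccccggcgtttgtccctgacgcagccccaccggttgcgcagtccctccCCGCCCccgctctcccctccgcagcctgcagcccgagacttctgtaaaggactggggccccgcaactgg
MEG3 chr14:100825858-100826157, plus strand: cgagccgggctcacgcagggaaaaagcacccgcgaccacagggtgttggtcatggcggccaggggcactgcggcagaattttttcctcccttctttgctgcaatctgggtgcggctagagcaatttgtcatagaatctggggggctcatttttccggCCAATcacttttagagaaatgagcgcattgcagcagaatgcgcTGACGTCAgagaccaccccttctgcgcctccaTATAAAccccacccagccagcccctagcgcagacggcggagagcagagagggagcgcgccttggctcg
TUG1 chr22:30969015-30969314, plus strand: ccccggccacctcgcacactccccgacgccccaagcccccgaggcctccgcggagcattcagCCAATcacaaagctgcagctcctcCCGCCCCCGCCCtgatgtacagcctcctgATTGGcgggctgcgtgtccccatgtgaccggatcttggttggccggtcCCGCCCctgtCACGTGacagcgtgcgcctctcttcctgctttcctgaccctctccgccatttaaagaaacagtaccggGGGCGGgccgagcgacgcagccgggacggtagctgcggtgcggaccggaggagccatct
NORAD chr20:36050911-36051210, minus strand: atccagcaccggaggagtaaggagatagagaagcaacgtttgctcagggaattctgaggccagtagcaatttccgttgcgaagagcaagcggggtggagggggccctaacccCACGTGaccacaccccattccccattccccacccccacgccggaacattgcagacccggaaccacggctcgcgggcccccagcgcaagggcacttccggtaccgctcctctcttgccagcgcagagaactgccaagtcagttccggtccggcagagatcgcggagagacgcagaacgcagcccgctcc
The MALAT1 window was 73.7% GC with 5 GC boxes, where 44.6% of 27305 promoters hold at least 1. The MEG3 window held a CRE, present in 1.98% of promoters, a TATA motif (11.95%) and a CCAAT box (35.7%), and no GC box. An E-box was found in the windows of TUG1, OIP5-AS1 and NORAD, 3 of the 6, against 7.43% of all promoters, and not in those of MALAT1, MEG3 or MIAT. The AP-1 motif, present in 7.76% of all promoters, was in none of the 6 windows.

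Library totals ran from 7930765 to 15060744 counts, with the smallest totals in the 2 E15.5-mSGcm libraries, and 3 counts corresponded to between 0.199 and 0.378 CPM, the count scaled to the size of its library, a floor that covers counting error only because the reads carry no molecular identifiers. Counts of replicate libraries differed by more than counting error in every group (chi-square per gene of 1.78 to 3.64). Of 9 noradrenergic markers of NB cells, 8 passed the filter, among them HAND2, a transcription factor of sympathetic neurons, with between 4110 and 10809 counts in a library, and INSM1 did not, with 0 to 4 counts. Markers of other cell types were mixed. CDH5, a marker of endothelial cells, was at 0 in all 8 libraries and PTPRC, a leukocyte marker, had at most 1 count, whereas PDGFRB, a receptor of mesenchymal cells, had between 2360 and 3859 counts and COL1A1, a collagen, between 249 and 2021. The mitochondrial share of counts was 5.11% ± 0.359 in control, 4.94% ± 0.415 in E8-cSGcm, 5.56% ± 0.924 in E8-cDRGcm and 7.25% ± 0.304 in E15.5-mSGcm (SD, n = 2).

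Averaged over the 8 libraries, MALAT1 was the second most abundant of the 16680 genes by CPM (11921 CPM). Per kb of exon, which allows levels of different genes to be compared, it had 1142 CPM and ranked 19. NORAD followed with 58.7 CPM per kb (rank 713), then NEAT1 with 20.6, TUG1 with 18.2, OIP5-AS1 with 7.54, MEG3 with 2.71 and KCNQ1OT1 with 1.26. MIAT was the least abundant, with 0.189 CPM per kb and between 24 and 46 counts in a library, and ranked 15802, so that the label of an abundant RNA did not apply to it in these cells. KCNQ1OT1, MEG3 and OIP5-AS1 also ranked below 5000 per kb (12181, 9841 and 6060), but by CPM they ranked 2073, 3940 and 1262. Their lengths covered all annotated exons (92625, 23224 and 22370 bases), so their ranks per kb depend on the annotation. For OIP5-AS1, the transcript searched for motifs had 8881 bases. MIAT ranked 12430 by CPM. The short and the long isoform of NEAT1 share one Ensembl identifier and cannot be separated in these counts.

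MALAT1 rose in all 3 conditioned media. Control libraries had 4454 and 5570 CPM, E8-cSGcm libraries 8594 and 7247, E8-cDRGcm libraries 15633 and 16247 and E15.5-mSGcm libraries 18491 and 19130. The 4 groups did not overlap, and they followed the order control, E8-cSGcm, E8-cDRGcm, E15.5-mSGcm. With edgeR's quasi-likelihood test and Benjamini-Hochberg adjustment over all genes, where calls needed a fold of 1.5 or more besides an adjusted p under 0.05, the log2 fold change against control was 0.66 ± 0.13 (SE) in E8-cSGcm (edgeR adjusted p = 0.0145), 1.67 ± 0.13 in E8-cDRGcm (edgeR adjusted p = 1.72e-04) and 1.91 ± 0.13 in E15.5-mSGcm (edgeR adjusted p = 1.62e-04). These are 1.58-fold, 3.18-fold and 3.75-fold. The last step of that order was not resolved, since E15.5-mSGcm exceeded E8-cDRGcm by 0.24 on the log2 scale, with a 95% interval of -0.09 to 0.57 (edgeR adjusted p = 0.187). The call in E8-cSGcm sat close to both thresholds. It was lost without control replicate 1 (log2 fold change 0.51) and without E8-cSGcm replicate 1 (0.54), where the fold fell under 1.5, and without either E8-cDRGcm library (edgeR adjusted p of 0.0698 and 0.0681), which contribute only to the estimate of the spread. With only the 4 libraries compared in the fit it was 0.65 with an edgeR adjusted p of 0.136.

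**Figure D1:**
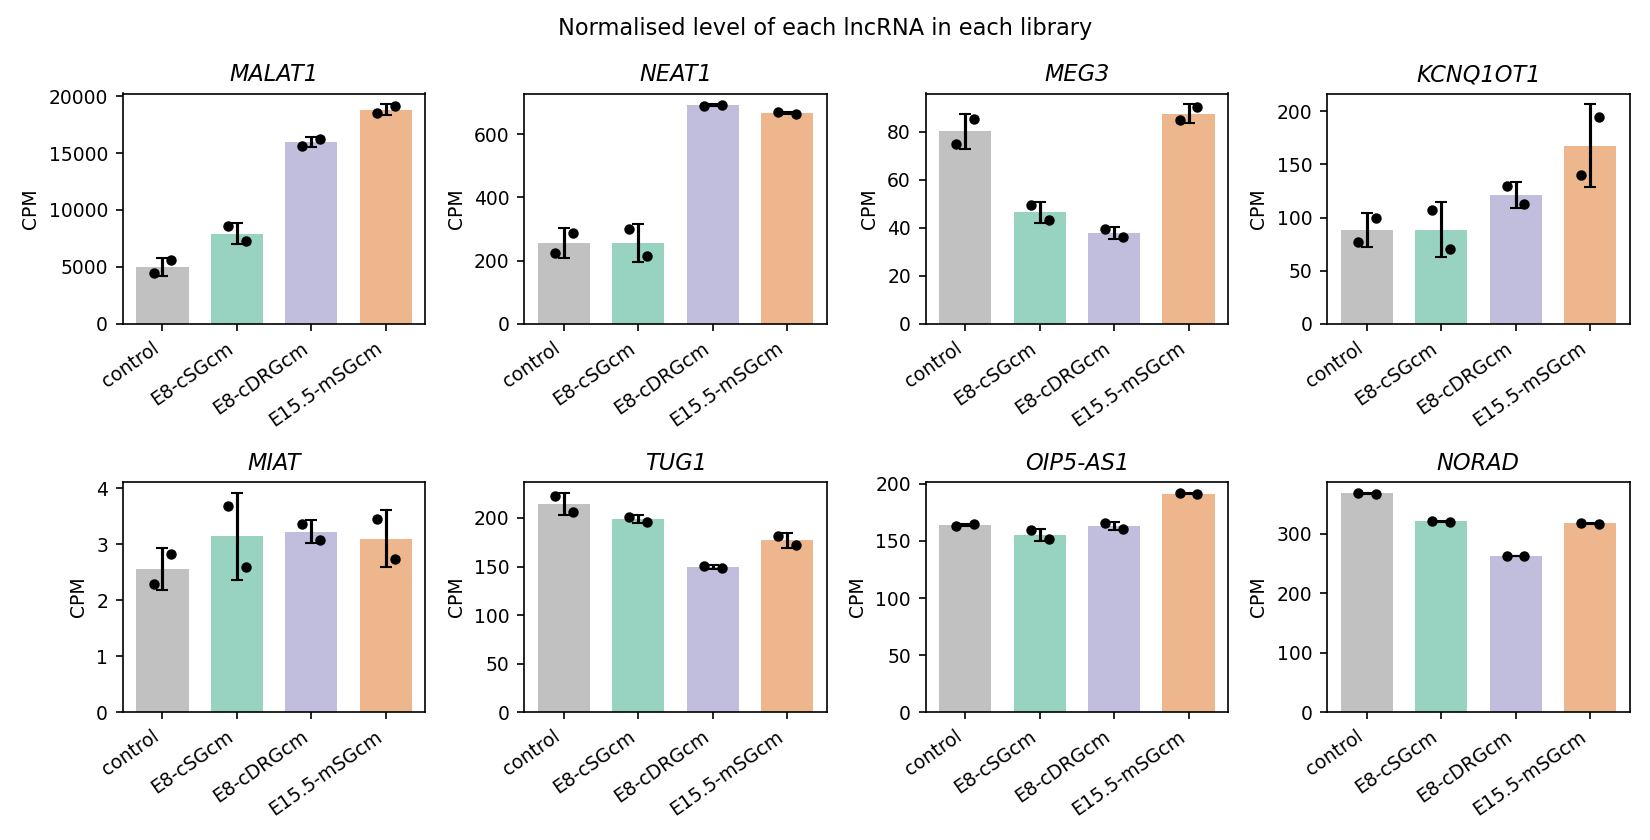
Level of each lncRNA in CPM (vertical axes, linear and starting at 0, each with its own scale) in the 4 groups. Bars are group means, error bars the SD of 2 libraries and points the libraries; MALAT1 climbs from about 5012 CPM in control to 18811 in E15.5-mSGcm, while MEG3 is lowest in both chick media.

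The increase was large enough to change the make-up of the libraries. All genes annotated as lncRNA held 1.58% ± 0.102 of the counts in control, 1.80% ± 0.150 in E8-cSGcm, 2.54% ± 0.0374 in E8-cDRGcm and 2.96% ± 0.0420 in E15.5-mSGcm (SD, n = 2). Within these counts the share of MALAT1 was 32.1% ± 2.94 in control, 44.8% ± 1.46 in E8-cSGcm, 61.8% ± 0.150 in E8-cDRGcm and 62.3% ± 0.398 in E15.5-mSGcm (SD, n = 2). Without MALAT1, lncRNA genes held 1.07% of the counts in control, 0.990% in E8-cSGcm, 0.970% in E8-cDRGcm and 1.12% in E15.5-mSGcm.

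NEAT1 rose in 2 of the 3 media. Its level was 223 and 289 CPM in control and 299 and 214 CPM in E8-cSGcm, so these groups overlapped. It was 690 and 694 CPM in E8-cDRGcm and 670 and 664 CPM in E15.5-mSGcm, above every control library. The log2 fold change was 1.43 ± 0.20 (SE) in E8-cDRGcm (edgeR adjusted p = 0.00470) and 1.38 ± 0.21 in E15.5-mSGcm (edgeR adjusted p = 0.00784), which are 2.70-fold and 2.61-fold. In E8-cSGcm it was 0.00 ± 0.21, with a 95% interval of -0.56 to 0.56 (edgeR adjusted p = 0.997), an interval that reaches close to the fold threshold on either side. Without E15.5-mSGcm replicate 2 the change in that medium was 1.38 with an edgeR adjusted p of 0.0527. NEAT1 lies upstream of MALAT1 on chromosome 11 (65190245 to 65213011, with MALAT1 at 65265111 to 65275544, GRCh37, both on the plus strand). No annotated gene overlaps NEAT1, whereas 2 antisense transcripts overlap MALAT1, of which ENSG00000270117 had 20 counts in all and TALAM1 was not analysed here.

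MEG3 moved in the other direction in the chick media, which lowered it past the thresholds, and was not called in E15.5-mSGcm. It had 75.1 and 85.3 CPM in control, 49.6 and 43.3 CPM in E8-cSGcm, 39.6 and 36.0 CPM in E8-cDRGcm and 84.8 and 90.3 CPM in E15.5-mSGcm. Every chick medium library was below every control library, and the mouse medium libraries overlapped the control. The log2 fold change was -0.79 ± 0.08 (SE) in E8-cSGcm (edgeR adjusted p = 1.68e-10) and -1.09 ± 0.08 in E8-cDRGcm (edgeR adjusted p = 2.17e-14), and 0.12 ± 0.07 in E15.5-mSGcm (edgeR adjusted p = 0.189, 95% interval -0.02 to 0.27). All 3 stayed on their side of the thresholds in each of the 19 alternative settings.

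Of the other 5, TUG1 and NORAD were lower in the conditioned media by less than 1.5-fold. NORAD was the most even between replicates, with 369 and 368 CPM in control, 321 and 320 CPM in E8-cSGcm, 262.8 and 262.4 CPM in E8-cDRGcm and 318 and 317 CPM in E15.5-mSGcm. All conditioned media libraries were below both control libraries. Its log2 fold change was -0.20 ± 0.05, -0.49 ± 0.05 and -0.21 ± 0.05 (SE) in E8-cSGcm, E8-cDRGcm and E15.5-mSGcm, with edgeR adjusted p of 0.00105, 4.78e-11 and 4.79e-04. TUG1 had 222 and 206 CPM in control, 201 and 196 CPM in E8-cSGcm, 151 and 148 CPM in E8-cDRGcm and 182 and 172 CPM in E15.5-mSGcm. Its log2 fold change was -0.52 ± 0.05 in E8-cDRGcm and -0.28 ± 0.05 in E15.5-mSGcm (edgeR adjusted p = 1.83e-10 and 8.85e-05), and -0.11 ± 0.05 in E8-cSGcm (edgeR adjusted p = 0.111). TUG1 is annotated as protein-coding in the release used here, so it was not part of the lncRNA share.

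OIP5-AS1 was the steadiest in the chick media, with 164 and 165 CPM in control, 159 and 152 CPM in E8-cSGcm and 166 and 161 CPM in E8-cDRGcm. Both E15.5-mSGcm libraries were higher, at 192 and 191 CPM, a log2 fold change of 0.22 ± 0.05 (edgeR adjusted p = 9.05e-04). Corrected for GC content and length, that value was 0.04 (edgeR adjusted p = 0.603). OIP5-AS1 overlaps OIP5 on the other strand, which had 625 counts in all 8 libraries, and NUSAP1 on the same strand, which had 24.

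KCNQ1OT1 and MIAT were not called in any medium. KCNQ1OT1 had 76.8 and 99.6 CPM in control, 107 and 70.2 CPM in E8-cSGcm, 130 and 113 CPM in E8-cDRGcm and 140 and 195 CPM in E15.5-mSGcm. The E8-cDRGcm and E15.5-mSGcm libraries were all above the control libraries, but the changes of 0.46 ± 0.30 and 0.93 ± 0.30 did not pass (edgeR adjusted p = 0.282 and 0.0791). The first of these was under 1.5-fold. For the second, DESeq2 gave 0.93 with an adjusted p of 0.0141. MIAT had 2.29 and 2.83 CPM in control, 3.69 and 2.59 CPM in E8-cSGcm, 3.37 and 3.08 CPM in E8-cDRGcm and 3.46 and 2.74 CPM in E15.5-mSGcm, and its changes of 0.27, 0.32 and 0.26, all under 1.5-fold, had 95% intervals that included 0 (edgeR adjusted p of 0.474, 0.323 and 0.528).

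**Figure D2:**
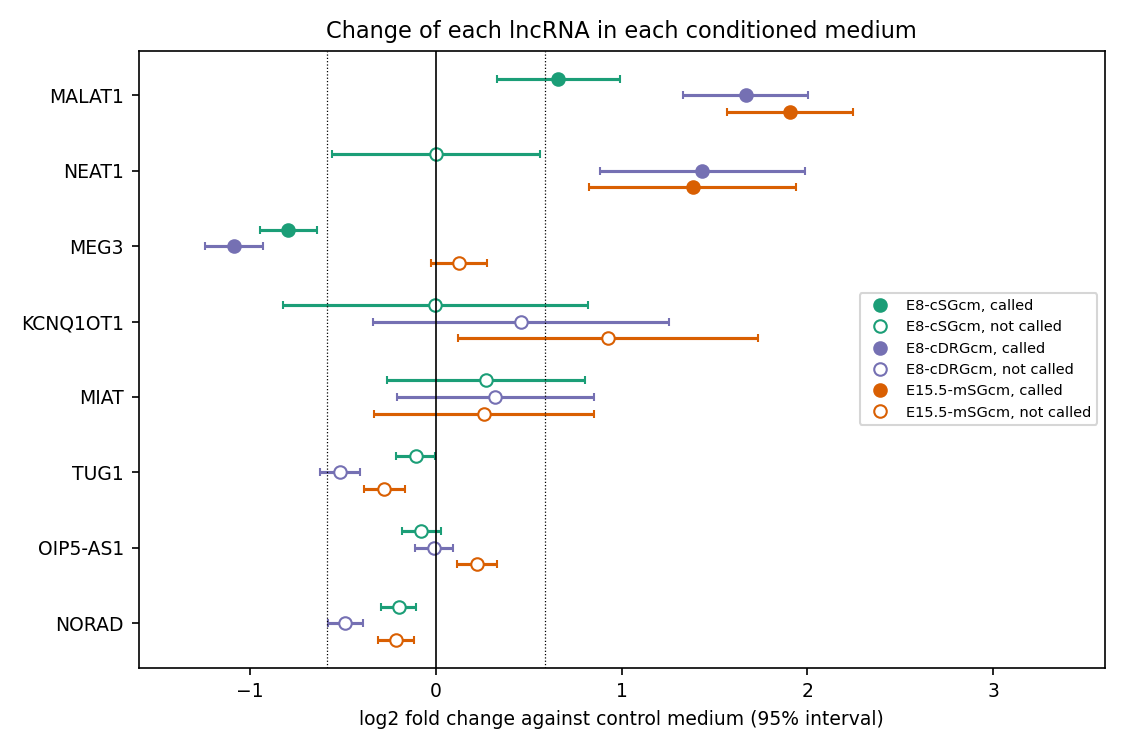
Change of each lncRNA against control on the log2 scale (horizontal axis) with 95% intervals, by medium. Filled points passed both thresholds (an adjusted p under 0.05, and the fold of 1.5 marked by dotted lines) and open points did not; MALAT1 is filled in all 3 media, NEAT1 in E8-cDRGcm and E15.5-mSGcm, and MEG3, to the left, in the 2 chick media.

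Counted together, 1 of the 8 was higher and 1 lower in E8-cSGcm, where 4.73% of all tested genes were called higher and 3.86% lower. In E8-cDRGcm 2 were higher and 1 lower, with 9.81% and 10.9% of all genes. In E15.5-mSGcm 2 were higher and 0 lower, with 6.65% and 7.27% of all genes. Of the 1772 tested lncRNA genes, 10.6%, 27.1% and 15.7% were called in either direction in the 3 media. By adjusted p alone, 3, 5 and 5 of the 8 passed, beside 31.3%, 49.5% and 37.8% of all genes. Groups of libraries did not overlap for 5, 7 and 6 of the 8, beside 63.6%, 73.5% and 68.3% of all tested genes. The median log2 fold change of the 8 was -0.04, 0.16 and 0.24, beside 0.01, 0.01 and -0.02 over all tested genes. With 8 genes chosen by name, the counts describe these genes and are not a test of lncRNAs as a class. The 3 comparisons share the control libraries.

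Between the conditioned media, MALAT1 and NEAT1 were higher in E8-cDRGcm than in E8-cSGcm, by 1.01 ± 0.13 and 1.43 ± 0.21 on the log2 scale (edgeR adjusted p = 0.00300 and 0.00863), the only 2 of the 8 called, where 2.62% of all genes were called higher. By adjusted p alone 5 of the 8 passed there, beside 30.2% of all genes. Both calls were lost without E8-cDRGcm replicate 2 (edgeR adjusted p of 0.0519 and 0.0511, at 0.98 and 1.43), and that of NEAT1 without replicate 1 as well (0.0519 at 1.44). Between E15.5-mSGcm and E8-cSGcm, the 2 media from sympathetic ganglia, MALAT1, NEAT1 and MEG3 were higher in the mouse medium, by 1.25 ± 0.13, 1.38 ± 0.21 and 0.92 ± 0.08 (edgeR adjusted p = 6.00e-04, 0.00556 and 3.95e-12), where 10.2% of all genes were called higher, and 5 of the 8 passed by adjusted p alone (49.8% of all genes). Between E15.5-mSGcm and E8-cDRGcm only MEG3 was called, higher by 1.21 ± 0.08 in the mouse medium (edgeR adjusted p = 2.66e-15), where 13.1% of all genes were called higher. By adjusted p alone 4 of the 8 passed, beside 52.6% of all genes. For NEAT1 that difference was -0.05, with a 95% interval of -0.59 to 0.49. The species of the ganglia and their kind cannot be told apart in the last comparison.

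The 2 libraries of a group differed more for some of these RNAs than for others. In control, library 2 exceeded library 1 by 0.32 for MALAT1, 0.37 for NEAT1, 0.18 for MEG3, 0.38 for KCNQ1OT1 and 0.30 for MIAT on the log2 scale of CPM. In E8-cSGcm the same 5 were lower in library 2, by -0.25, -0.48, -0.20, -0.61 and -0.51. TUG1, OIP5-AS1 and NORAD had smaller ratios, between -0.11 and 0.01 in these groups. By sign OIP5-AS1 went with the 5, at 0.01 and -0.07. The shares that follow go by sign alone, for genes with a mean of at least 2 CPM. Of 666 lncRNA genes, 36.8% were higher in control library 2 and lower in E8-cSGcm library 2, and of 11143 protein-coding genes 25.7% were. In these groups the mitochondrial share moved the same way, 4.85% and 5.36% in control and 5.24% and 4.65% in E8-cSGcm. In E8-cDRGcm it was 4.91% and 6.22%. The ratios there were 0.06 for MALAT1, 0.006 for NEAT1, -0.14 for MEG3, -0.21 for KCNQ1OT1 and -0.13 for MIAT. In E15.5-mSGcm the share was 7.46% and 7.03%, and the ratios of the same RNAs were 0.05, -0.01, 0.09, 0.48 and -0.34. The part of the mitochondrial share in the spread of the lncRNAs was not tested.

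**Figure D3:**
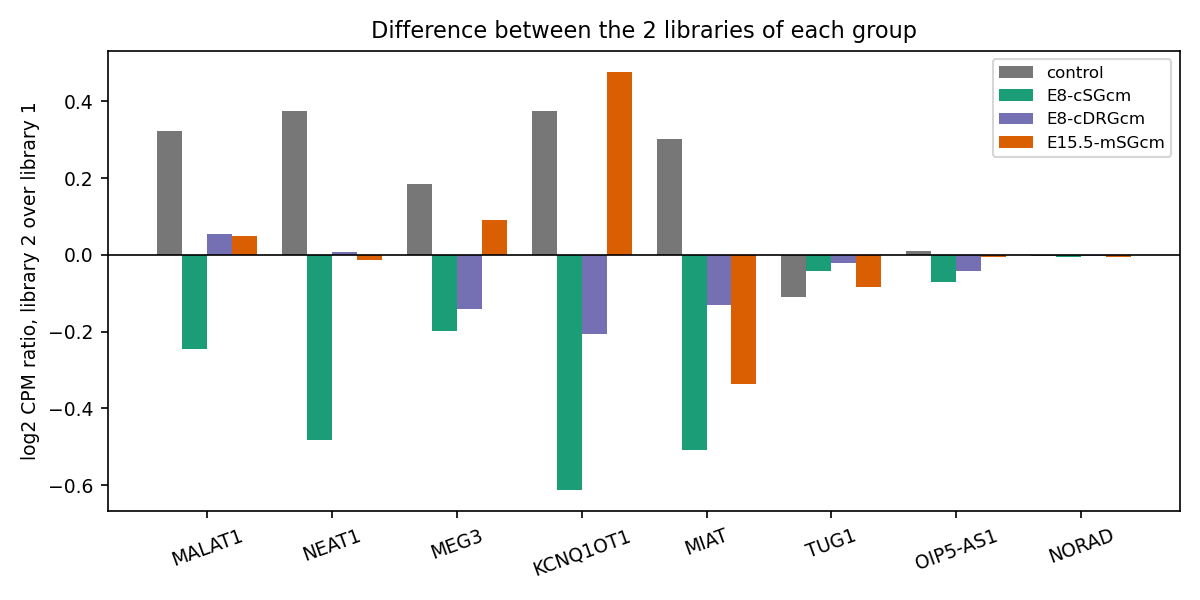
Difference between the 2 libraries of each group, as the log2 ratio of CPM of library 2 over library 1 (vertical axis), for each lncRNA. MALAT1, NEAT1, MEG3, KCNQ1OT1 and MIAT are above 0 in control and below 0 in E8-cSGcm, with KCNQ1OT1 reaching -0.61, and NORAD stays at 0 in every group.

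Genes for the proteins that assemble with MALAT1 and NEAT1 were examined as fixed lists. Of 15 tested genes for paraspeckle proteins, 0 were called higher, and 3 were called lower in E8-cSGcm, 5 in E8-cDRGcm and 0 in E15.5-mSGcm. Of all tested genes, 4.73%, 9.81% and 6.65% were called higher in the 3 media and 3.86%, 10.9% and 7.27% lower. The medians of the 15 were -0.24, -0.35 and -0.09, beside 0.01, 0.01 and -0.02 over all genes. By adjusted p alone, 9, 12 and 9 of the 15 passed, beside 31.3%, 49.5% and 37.8% of all genes. The log2 fold change was below 0 for 15, 15 and 11 of them. SFPQ, which binds NEAT1 and is a core paraspeckle protein, had 1122 CPM in control and 427, 401 and 1019.9 CPM in the 3 media, log2 fold changes of -1.39 ± 0.05 in E8-cSGcm, -1.49 ± 0.05 in E8-cDRGcm and -0.14 ± 0.05 in E15.5-mSGcm (edgeR adjusted p = 5.54e-23, 8.43e-25 and 0.0172). HNRNPM, a splicing regulator, was 1.89-fold lower in E8-cSGcm and 2.83-fold lower in E8-cDRGcm (edgeR adjusted p = 8.76e-18 and 1.08e-24). In E8-cDRGcm higher NEAT1 thus stood beside lower SFPQ and HNRNPM, and in E8-cSGcm SFPQ and HNRNPM fell with no change of NEAT1 detected. In E15.5-mSGcm higher NEAT1 stood without a called change in any of the 15, though 9 of them passed by adjusted p alone.

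Of 22 genes for nuclear speckle proteins, 2 rose and 4 fell in E8-cSGcm, and 4 rose and 4 fell in E8-cDRGcm. In E15.5-mSGcm 1 rose and 1 fell, and the medians were -0.10, 0.03 and 0.05 in the 3 media. Beside this, 4.73%, 9.81% and 6.65% of all tested genes were called higher in these media, and 3.86%, 10.9% and 7.27% lower. CLK4, a kinase that phosphorylates splicing factors, rose in all 3 media, by 0.96 ± 0.11, 1.31 ± 0.11 and 0.65 ± 0.13 (edgeR adjusted p = 1.09e-08, 6.70e-13 and 7.44e-05). SRSF2, a splicing factor of the SR family, fell by 0.93 in E8-cDRGcm and by 0.61 in E15.5-mSGcm (edgeR adjusted p = 9.58e-16 and 3.59e-10). TRA2A, another splicing regulator, fell by 0.85 in E8-cSGcm and by 0.63 in E8-cDRGcm (edgeR adjusted p = 1.63e-12 and 4.10e-10).

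**Figure D4:**
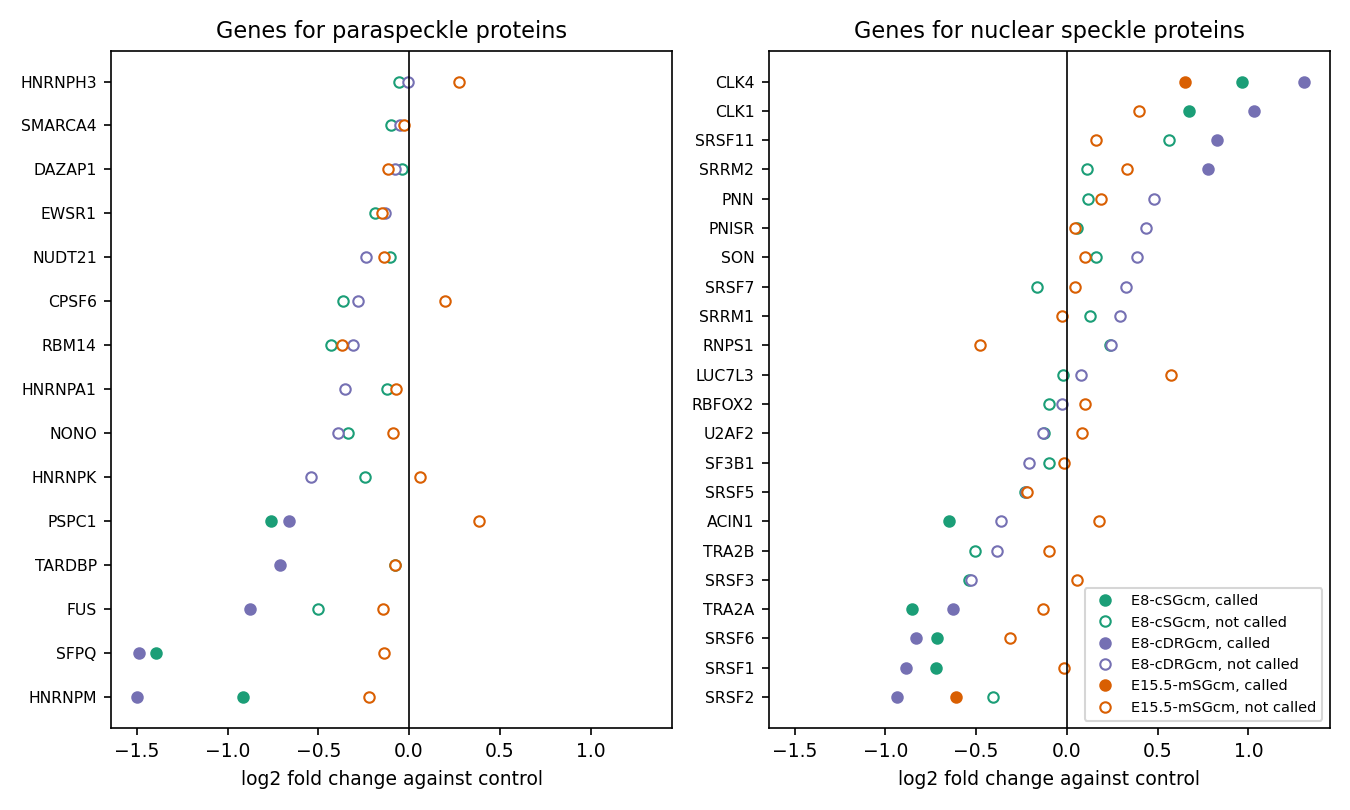
Log2 fold change against control (horizontal axis) of 15 genes for paraspeckle proteins (left) and 22 for nuclear speckle proteins (right), 1 point per medium, filled where called. On the left, all filled points lie below 0 and come from the 2 chick media; on the right, they lie on both sides, from CLK4 at 1.31 to SRSF2 at -0.93 in E8-cDRGcm.

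Of 13 tested genes for protein partners of the other lncRNAs, 5, 9 and 4 passed by adjusted p alone in E8-cSGcm, E8-cDRGcm and E15.5-mSGcm, beside the 31.3%, 49.5% and 37.8% of all genes given above. With the fold criterion 1 was called, KHDRBS1, an RNA-binding protein of the STAR family, which fell by 0.64 in E8-cDRGcm (edgeR adjusted p = 2.70e-14). PUM2, a Pumilio protein, which binds the motif shown for NORAD, changed by between -0.07 and 0.19 and was not called in any medium. Of 14 genes for nuclear RNA decay and modification, 0 were called in E8-cSGcm and E15.5-mSGcm. In E8-cDRGcm 2 fell, where 10.9% of all tested genes were called lower. The largest decrease was in EXOSC10, a nuclease of the nuclear exosome, by 0.82 (edgeR adjusted p = 8.11e-14).

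Around the lncRNA loci, 18 neighbouring and imprinted-domain genes were tested. Of these, 3 fell in E8-cSGcm, 1 rose and 6 fell in E8-cDRGcm, and 4 fell in E15.5-mSGcm. The medians were -0.08, -0.28 and -0.06. By adjusted p alone, 8, 12 and 8 of the 18 passed, beside 31.3%, 49.5% and 37.8% of all genes. Over all tested genes, 4.73%, 9.81% and 6.65% were called higher in these media and 3.86%, 10.9% and 7.27% lower. In the imprinted domain of MEG3, the lncRNAs MEG8 and MEG9 had the directions of MEG3, though in E15.5-mSGcm the signs of MEG8 and MEG9 turned in some alternative settings. MEG8 had 69.2 and 91.3 CPM in control, 59.3 and 46.0 CPM in E8-cSGcm, 42.6 and 45.3 CPM in E8-cDRGcm and 97.4 and 90.8 CPM in E15.5-mSGcm, changes of -0.62 ± 0.18, -0.87 ± 0.18 and 0.22 ± 0.17 (edgeR adjusted p = 0.0512, 0.0108 and 0.393). MEG9 changed by -1.12 ± 0.38 and -1.61 ± 0.40 in E8-cSGcm and E8-cDRGcm (edgeR adjusted p = 0.0202 and 0.00106). It had 27 and 31 counts in control, 13 and 12 in E8-cSGcm and 9 and 9 in E8-cDRGcm. In E15.5-mSGcm its change was 0.30 ± 0.34 (edgeR adjusted p = 0.533). DLK1, a paternally expressed gene of the domain, was called lower in the same 2 media (edgeR adjusted p = 0.0129 and 0.00366) on few counts. It had 10 and 14 in control, 2 and 3 in E8-cSGcm and 1 and 3 in E8-cDRGcm. DIO3, at the other end, changed by -0.81 ± 0.28 in E8-cDRGcm and -1.04 ± 0.33 in E15.5-mSGcm (edgeR adjusted p = 0.0172 and 0.0124). It had 42 and 46 counts in control, 29 and 19 in E8-cDRGcm and 11 and 14 in E15.5-mSGcm.

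In the KCNQ1 domain, KCNQ1 was called lower in E15.5-mSGcm (edgeR adjusted p = 0.0324), with 11 and 8 counts in control and 1 and 1 in that medium, and TSSC4 and CD81 were not called. KCNQ1OT1 lies inside KCNQ1 on the other strand, and whether strand was used in counting is not given in the sources used here. Beside MALAT1 and NEAT1, LTBP3 and FRMD8 were not called in any medium. ZNRD2 fell by 0.73 in E15.5-mSGcm (edgeR adjusted p = 6.48e-06), and SLC25A45 by 1.05 and 1.37 in E8-cSGcm and E8-cDRGcm (edgeR adjusted p = 0.0132 and 0.00111). SLC25A45 had 30 and 52 counts in control, 24 and 13 in E8-cSGcm and 18 and 12 in E8-cDRGcm. None of these 4 neighbours rose with MALAT1 past the thresholds. EPB41L1, near NORAD, rose by 0.64 in E8-cDRGcm and fell by 0.77 in E15.5-mSGcm (edgeR adjusted p = 1.58e-09 and 1.05e-08), and OIP5 fell by 0.76 in E8-cDRGcm (edgeR adjusted p = 5.70e-04). The other neighbours, MIATNB, MORC2, CHP1 and CNBD2, were not called in any medium. By adjusted p alone, MORC2 was higher by 0.48 in E15.5-mSGcm (edgeR adjusted p = 1.24e-08). CHP1 was higher by 0.19, 0.51 and 0.34 in E8-cSGcm, E8-cDRGcm and E15.5-mSGcm (edgeR adjusted p = 0.0124, 2.11e-09 and 2.62e-05).

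Other well-known lncRNAs served as a background list. Of 29 tested, 2 rose and 1 fell in E8-cSGcm, 5 rose and 7 fell in E8-cDRGcm and 3 rose and 3 fell in E15.5-mSGcm. Their medians were -0.18, -0.23 and 0.10. Of all tested lncRNA genes, 10.6%, 27.1% and 15.7% were called in either direction in these media. Over all tested genes, 4.73%, 9.81% and 6.65% were called higher and 3.86%, 10.9% and 7.27% lower. LINC-PINT rose by 2.18 ± 0.21 in E15.5-mSGcm (edgeR adjusted p = 4.85e-09), from a mean of 3.94 to 17.8 CPM, with 13.7 and 21.8 CPM in the libraries of that medium. It also rose by 0.68 ± 0.24 in E8-cDRGcm (edgeR adjusted p = 0.0182). CRNDE rose from 5 and 4 counts in control to 19 and 30 in E8-cSGcm and 20 and 24 in E8-cDRGcm, changes of 2.48 ± 0.48 and 2.32 ± 0.49 (edgeR adjusted p = 1.08e-04 and 1.58e-04). NBAT1, an lncRNA of the neuroblastoma risk locus, fell by 2.30 ± 0.62 in E8-cDRGcm (edgeR adjusted p = 0.00227) on 18 and 14 counts in control and 1 and 5 in that medium. It was also called lower in E15.5-mSGcm, by 1.62 ± 0.65 (edgeR adjusted p = 0.0462) on 4 and 2 counts. LINC00641 fell by 0.60 in E8-cSGcm (edgeR adjusted p = 5.09e-05). Of 6 small structural RNAs, 3 were matched in the matrix, TERC, RMRP and RN7SK, of which 0 passed the filter on low counts, and the others were not analysed here.

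Markers of NB identity moved in the same libraries. Of 8 noradrenergic markers tested, 0 were called higher, and 2, 4 and 2 fell in E8-cSGcm, E8-cDRGcm and E15.5-mSGcm. Over all tested genes, 4.73%, 9.81% and 6.65% were called higher in these media and 3.86%, 10.9% and 7.27% lower. The summed level of the 9 noradrenergic markers in the matrix was 1678 to 1707 CPM in control. It was between 1250 and 1462 CPM in the conditioned media. DBH, which makes noradrenaline, fell by 1.11 and 1.96 in the chick media (edgeR adjusted p = 8.24e-12 and 4.99e-18). In E15.5-mSGcm DBH was at 51.8 CPM against 37.5 CPM in control, a log2 fold change of 0.47 under the fold threshold (edgeR adjusted p = 3.39e-05). TH, the first enzyme of that pathway, fell by 3.03 in E15.5-mSGcm (edgeR adjusted p = 2.27e-11). Of 9 markers of other cell types in the matrix, 2 were at 0 in all libraries and 4 were tested, and their summed level was 362 to 371 CPM in control, 366 to 389 in E8-cSGcm, 408 to 427 in E8-cDRGcm and 338 to 356 in E15.5-mSGcm. KRT18, a keratin, rose by 0.93 and 1.76 in the chick media, and COL1A1 fell by 1.82 in E15.5-mSGcm (edgeR adjusted p = 4.92e-04, 3.31e-10 and 5.91e-16). Their part in the changes of the lncRNAs was not tested, and in bulk samples fewer cells of a type and less RNA per cell cannot be told apart.

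For the 3 lncRNAs called in at least 2 media, the genes with the most similar changes were sought among 8624 genes with an average log2 CPM of at least 4, by the root mean square difference over the 3 changes against control. Nearest to MALAT1 were NFKB2, a subunit of NF-kB (difference 0.18, with changes of 0.91, 1.69 and 2.08), VIP, a neuropeptide (0.28), and BCL6, a transcriptional repressor (0.31). Nearest to NEAT1 were SCN9A, a sodium channel of peripheral neurons (0.20, with changes of 0.31, 1.47 and 1.25), ZBTB20 (0.35) and OPTN (0.37). MEG3 had closer neighbours, ST8SIA3, a sialyltransferase (0.048, with changes of -0.71, -1.10 and 0.12), LRCH3 (0.051) and SOCS4 (0.066). These likenesses rest on 3 values that share the control libraries.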

How the data were processed

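RNA-seq counts of 8 libraries were analysed. The kit was stranded, took 50 ng of total RNA and needed no poly(A) tail, and reads were single, of 75 bp. The authors made the counts with bcl2fastq 2.17.1.14, cutadapt 1.9.1, TopHat 2.1.0 and HTSeq 0.11.3 and deposited them as raw counts per Ensembl gene. The methods of the study name hg19 and the submitters' processing notes hg38; the strand option and annotation release are not given in the sources used here. HTSeq discards reads that fit more than 1 gene, which can lower overlapping genes.

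Symbols and positions came from GENCODE 44 on GRCh37 (58611 identifiers matched). Counts were normalised by TMM and tested in 1 model of the 8 libraries with edgeR 4.0.16 in R 4.3.3 (filterByExpr by group, robust quasi-likelihood fit). CPM are scaled by TMM. Libraries were grouped by their labels. All 6 pairs of groups were compared. Same-numbered libraries did not deviate together (correlations of -0.04 to 0.04), so replicate number was no block. The fit was tested on simulated data.

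The 8 lncRNAs and the gene lists were chosen with earlier results of these data known. Named genes were the 8, per list and medium the called gene with the highest and lowest change, every tested neighbour, and for lncRNAs called in 2 media or more the 3 genes with the most similar changes. PUM2, HAND2, INSM1, CDH5, PTPRC, PDGFRB and the small structural RNAs were named after their values were seen. Some genes the rule names are not reported here. Alternatives were DESeq2 1.42.0, RLE factors, total counts, TMM on protein-coding genes, other filters, only the libraries compared, no fold criterion, a replicate block, correction for GC content and length (splines with 5 degrees of freedom), thinning to 7930765 counts and each library left out.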

Additional observations from a re-analysis of the deposited data

Results flagged for a closer look

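Differences between conditioned media passed both thresholds, the adjusted p and the fold of 1.5, for 3 of the 8 lncRNAs, by a direct contrast of the media within the same edgeR model. By adjusted p alone, 5, 5 and 4 of the 8 passed in the 3 contrasts described here, in their order, beside 30.2%, 49.8% and 52.6% of all genes. Between E8-cDRGcm and E8-cSGcm, MALAT1 was higher by 1.01 (edgeR adjusted p = 0.00300) and NEAT1 by 1.43 (edgeR adjusted p = 0.00863) on the log2 scale in E8-cDRGcm, in 2 of 2 libraries each. Both of these media came from chick ganglia of the same stage. Between E15.5-mSGcm and E8-cSGcm, MALAT1 was higher by 1.25 (edgeR adjusted p = 6.00e-04), NEAT1 by 1.38 (edgeR adjusted p = 0.00556) and MEG3 by 0.92 (edgeR adjusted p = 3.95e-12) in E15.5-mSGcm. Between E15.5-mSGcm and E8-cDRGcm, MEG3 was higher by 1.21 in E15.5-mSGcm (edgeR adjusted p = 2.66e-15).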

How the results depend on the processing

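Most calls held. With an adjusted p under 0.05 alone, 5 of the 8 lncRNAs passed in E8-cDRGcm and 5 in E15.5-mSGcm against control, beside 49.5% and 37.8% of all genes. In these media against E8-cSGcm 5 and 5 passed, beside 30.2% and 49.8%, and 4 between E15.5-mSGcm and E8-cDRGcm, beside 52.6%. With only the libraries compared, 1 passed in E8-cSGcm. Leaving out each library in turn gave 1 to 2 calls in E8-cSGcm, 1 to 2 in E15.5-mSGcm and 0 to 2 for E8-cDRGcm against E8-cSGcm. The replicate block, a fit with the library number as a term, gave the same 6 counts of called lncRNAs (2, 3 and 2 against control, then 2, 3 and 1). DESeq2 called KCNQ1OT1 too, in E15.5-mSGcm against control and against E8-cSGcm, and thinning to the smallest library called it in the latter (0.95, edgeR adjusted p = 0.0469). With 2 libraries a group, small changes of KCNQ1OT1 and MIAT were not detectable.

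The sign turned for these log2 fold changes, none of them called in the reported fit. The cause was not tested. With RLE size factors, NEAT1 was -0.0066 in E8-cSGcm and MIAT was 0.0059, NORAD 0.0049 in E15.5-mSGcm against E8-cSGcm. With total counts in place of TMM, KCNQ1OT1 was 0.0072 in E8-cSGcm and MIAT was -0.0017 in E8-cDRGcm against E8-cSGcm. With TMM on protein-coding genes, NEAT1 was -0.0081 in E8-cSGcm and MIAT was 0.0028, NORAD 0.0018 in E15.5-mSGcm against E8-cSGcm. With a filter at 1 count in total, KCNQ1OT1 was 0.0061 in E8-cSGcm. With only the libraries compared, NEAT1 was -0.0057 in E8-cSGcm. With the replicate block, NEAT1 was -0.0014 in E8-cSGcm. With the GC and length correction, NEAT1 was -0.0061, KCNQ1OT1 0.012 in E8-cSGcm and FRMD8 was 0.20, MEG8 -0.025, TSSC4 0.22 in E15.5-mSGcm. With that correction and the replicate block, NEAT1 was -0.0078, KCNQ1OT1 0.011 in E8-cSGcm and FRMD8 was 0.20, MEG8 -0.023, TSSC4 0.22 in E15.5-mSGcm. After thinning to the smallest library, KCNQ1OT1 was 0.028, CNBD2 -0.27 in E8-cSGcm and ZNRD2 was 0.037 in E8-cDRGcm and MIAT was -0.16 in E8-cDRGcm against E8-cSGcm and NORAD was 0.012 in E15.5-mSGcm against E8-cSGcm. With DESeq2, KCNQ1OT1 was 0.0030 in E8-cSGcm. With 1 library left out, the groups without it keep 2 libraries and the lone library is assumed to vary like the other groups. In E8-cSGcm NEAT1 ranged from -0.25 to 0.23, KCNQ1OT1 from -0.33 to 0.28, KCNQ1 from -0.17 to 0.50, LINC-PINT from -0.46 to 0.28, LTBP3 from -0.16 to 0.039, CNBD2 from -0.019 to 0.17. In E8-cDRGcm MIATNB ranged from -0.12 to 0.084, OIP5-AS1 from -0.034 to 0.015, ZNRD2 from -0.13 to 0.022, MORC2 from -0.100 to 0.0027. In E15.5-mSGcm FRMD8 ranged from -0.14 to 0.074, TSSC4 from -0.20 to 0.11, MIATNB from -0.32 to 0.10, MEG9 from -0.20 to 0.63. In E8-cDRGcm against E8-cSGcm MIAT ranged from -0.20 to 0.31. In E15.5-mSGcm against E8-cSGcm MIAT ranged from -0.27 to 0.24. In E15.5-mSGcm against E8-cDRGcm MIAT ranged from -0.24 to 0.095.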
